A study of Mus musculus with 3 samples.

Results

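The expression of 7 mouse genes of drug and hormone inactivation was followed on two-colour arrays that set liver RNA against spleen RNA: the glucuronosyltransferases Ugt1a6a and Ugt2b5, the cytosolic sulfotransferases Sult1a1, Sult1b1 and Sult1d1, the carboxylesterase Ces1g and the alcohol dehydrogenase Adh4. The 7 were taken by their symbol in the platform annotation, from the 9803 genes with a ratio on every array. Each had 1 probe, and all 7 probes were measured on every array. Both RNAs were total RNA bought from Clontech and turned into labelled cRNA with a single round of amplification. On each of the 3 arrays the spleen sample carried Cyanine-3 (green) and the liver sample Cyanine-5 (red). The labels give 1 catalogue number per tissue and no strain, sex, age or number of mice, so the 3 arrays were treated as repeats of 1 pair of RNAs. SDs and p-values therefore describe variation from array to array, possibly only technical. Because liver was always in the red dye, a tissue difference and a dye effect on a probe cannot be told apart.

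Values are log2 ratios, and a ratio above 0 was read as more signal in liver. The table does not state this direction, so it is likely rather than known. It rests on markers: the hepatocyte genes F2, Tdo2 and Ahsg, which encode prothrombin, a tryptophan-degrading enzyme and a plasma glycoprotein, averaged 5.70, 3.84 and 3.76, while 6 of 8 lymphoid genes passed the test on the other side, among them Cd3d at -2.04 and Ptprc at -2.15. Ptprc averages 1 probe at -4.33 and 1 at 0.03. Cd3e at 0.13 and Ms4a1 at 0.05 did not pass. The value of Ms4a1 is that of 1 of its 3 probes. Another read -1.46 and -3.87 on arrays 1 and 2, the third read -4.51 on array 2, and both were listed at 0 elsewhere. Cd79a at -1.20 did not pass without array 1 or without array 2, where it averaged -0.83 and -1.13. The other hepatocyte markers with a probe had no ratio on all arrays, and Ttr, Apoa1 and Apoh were listed at exactly 0 throughout. An exact 0 was taken as no measurement. Of 5 genes of macrophages, 2 passed toward liver and 3 toward spleen. The 2 were Cd5l at 0.90 and Clec4f at 1.62, the mean of probes at 3.18 and 0.05. Of the 3, Adgre1 at -0.36 did not pass without array 1 (-0.30) or without array 2 (-0.28). Of 5 pancreas genes, 3 passed toward spleen, the lowest at -0.45, and 1 without array 1. Of 4 adipose genes, 2 passed in each direction, between -0.83 and 0.56, with 1 toward spleen without array 2, and of 2 endothelial or biliary genes neither passed, although Epcam, at -0.34, passed toward spleen with arrays centred (adjusted p = 0.0431), with arrays scaled (0.0443) or with limma's variance trend (0.0498). In RNA of whole organs, a smaller share of cells of a type and less RNA per cell cannot be told apart.

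Foreign compounds and spent hormones leave the body mostly after they have been made water-soluble, and the liver does much of this. Glucuronosyltransferases sit in the endoplasmic reticulum and attach glucuronic acid taken from UDP-glucuronic acid. Sulfotransferases work in the cytosol and attach sulfate taken from the donor PAPS. Carboxylesterases cleave ester and amide bonds, and alcohol dehydrogenases oxidise alcohols. The last 2 kinds of enzyme do not conjugate: they expose or change groups before or beside conjugation, so only 5 of the 7 genes encode conjugating enzymes.

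Of the 7 genes, 6 were higher in liver, each by more than 8-fold, and Sult1d1 alone showed no tissue difference that passed the test. The 6 passed limma's test at an adjusted p under 0.05, where 25.3% of all genes passed toward liver and 27.4% toward spleen (52.8% in either direction). All 6 were also past 4-fold, which 4.26% of all genes passed toward liver. The median of the 7 was 4.66, against 0.02 over all 9803 genes. The single-array ratios of the 6 ran from 2.80 to 5.72, below 6.64, the highest value over the 3 arrays. The 7 were chosen with earlier results of these arrays known, so these counts describe them and do not test them as a set.

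**Figure D1:**
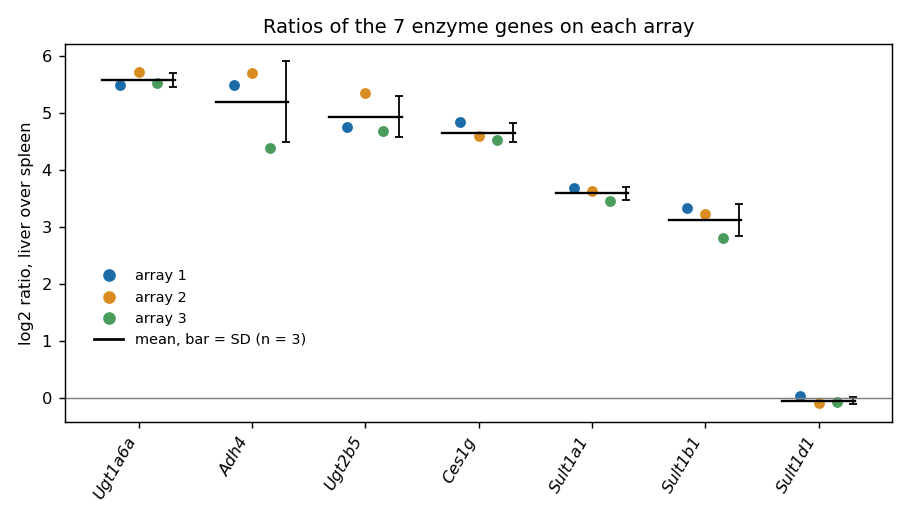
Log2 ratio of liver over spleen for each of the 7 genes, ordered by mean. Points are the 3 arrays, black lines the mean and bars the SD (n = 3). The first 6 genes sit between 2.80 and 5.72 on every array, and Sult1d1 lies within 0.10 of 0.

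Both glucuronosyltransferases stood near the top of all ratios. Ugt1a6a, which conjugates small flat phenols, read 5.50, 5.72 and 5.53 on arrays 1, 2 and 3. The 3 arrays lay close together, and the mean of 5.58 ± 0.12 (SD, n = 3) is a 47.9-fold ratio, rank 4 of the 9803 genes (limma adjusted p = 1.06e-05). Genes without a ratio on every array are not ranked, among them Alb, at 6.16 on array 2 alone. Ugt2b5, of the subfamily that acts on steroids and many drugs, read 4.76, 5.35 and 4.69. Array 2 was the highest, and the mean of 4.93 ± 0.36 is a 30.6-fold ratio (limma adjusted p = 1.41e-05). All Ugt1a genes splice their own first exon to shared later exons. A probe in the shared part would read them together, and where this probe lies was not analysed here. Of the 9 Ugt1a genes in the RefSeq table, Ugt1a6a was the 1 with a ratio.

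The 3 sulfotransferases did not share 1 pattern. Sult1a1, a phenol sulfotransferase, read 3.69, 3.63 and 3.47, a narrow band with a mean of 3.60 ± 0.12, or 12.1-fold (limma adjusted p = 1.17e-05). Sult1b1, which acts on thyroid hormones and phenols, read 3.33, 3.22 and 2.80. Array 3 was the lowest, and the mean of 3.12 ± 0.28 is an 8.69-fold ratio (limma adjusted p = 2.62e-05). Sult1d1, a sulfotransferase of catecholamines and phenols, read 0.03, -0.09 and -0.07. Its arrays lay on both sides of 0, with a mean of -0.05 ± 0.07 (limma adjusted p = 0.639) and a 95% interval for the fold from 0.848 to 1.11. On every array Sult1b1 exceeded Sult1d1, by 3.30, 3.32 and 2.88, so no value of the 2 genes overlapped. A ratio near 0 arises where both tissues hold the transcript equally and where neither gives signal above background. These cannot be told apart from ratios.

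Ces1g and Adh4 were also higher in liver, and Ces1g lay below Ugt1a6a on every array. Ces1g, a carboxylesterase of hepatocytes with a part in lipid handling, read 4.84, 4.60 and 4.54. These agreed closely, with a mean of 4.66 ± 0.16, or 25.2-fold (limma adjusted p = 1.06e-05). Adh4, which oxidises retinol and long-chain alcohols, read 5.50, 5.71 and 4.39. Array 3 stood well below the other 2, and the mean of 5.20 ± 0.71 is a 36.8-fold ratio with the widest SD of the 7 (limma adjusted p = 5.44e-05). Without array 3 the mean was 5.61. Array 3 also gave the lowest ratio for Ugt2b5, Ces1g, Sult1a1 and Sult1b1. Over the 418 genes past the test and 4-fold toward liver, the median deviation of array 3 from the gene mean was -0.18.

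**Figure D2:**
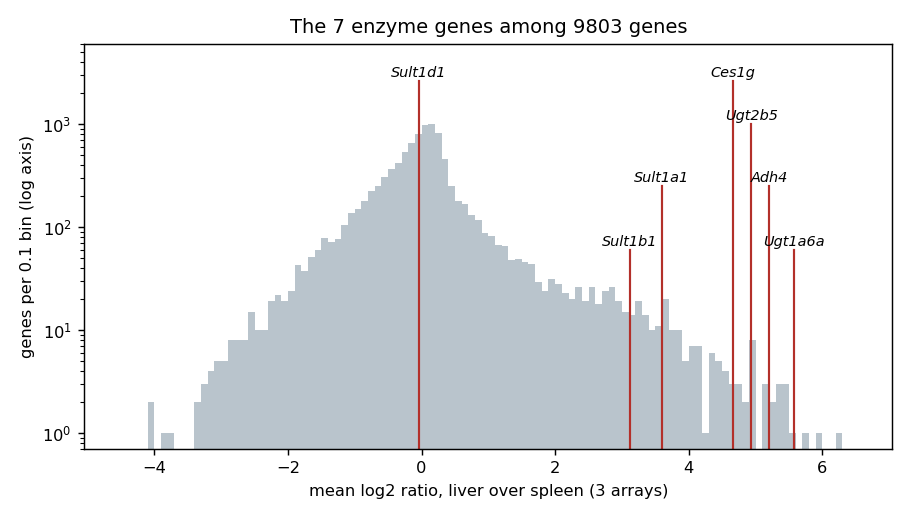
Histogram of the mean log2 ratio of 9803 genes (log count axis, bins of 0.1), with the 7 genes as red lines. Sult1d1 falls in the central peak and the other 6 lie in the thin liver-side tail at 3.12 to 5.58.

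The order of the ratios was Ugt1a6a, Adh4, Ugt2b5, Ces1g, Sult1a1, Sult1b1 and Sult1d1. Of the 21 pairs of genes, 17 kept 1 order on all 3 arrays with no overlap of values. The 4 pairs that did not were Adh4 with Ugt1a6a, Ugt2b5 and Ces1g, and Ugt2b5 with Ces1g. Ugt1a6a exceeded Adh4 by 0.38 ± 0.66 on average, but on arrays 1 and 2 the difference was -0.0042 and 0.0050. Ces1g exceeded Sult1a1 by 1.06 ± 0.10, and Sult1a1 exceeded Sult1b1 by 0.48 ± 0.16. With 3 arrays an exact two-sided permutation test cannot go below p = 0.25, and no test of these differences was run. They rank tissue ratios, not transcript levels, since different probes cannot be compared for level.

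Of 22 listed glucuronosyltransferases 5 were measured on all arrays, with 4 past the test toward liver, none toward spleen and a median of 4.44. Without Ugt1a6a and Ugt2b5, 2 of 3 passed toward liver, with a median of 3.31, where 25.3% of all genes did. Ugt2b37 averaged 4.44 ± 0.58 and Ugt2a3 3.31 ± 0.27. Ugt8a, which makes galactosylceramide for myelin, was at 0.08 ± 0.20. Ugt2a1, a form of the olfactory epithelium, had a value on array 2 alone, -0.20. In the wider sulfotransferase family 4 of 10 genes passed toward liver, at 1.96 to 3.60, and the other 6 lay between -0.05 and 0.26. Without Sult1a1, Sult1b1 and Sult1d1, 2 of 7 passed toward liver, with a median of 0.19. That share is near the 25.3% of all genes. Sult1c2 averaged 2.41 ± 0.47 and Sult1e1, the estrogen sulfotransferase, 1.96 ± 0.08. Sult1d1 thus sat with Sult3a1 (0.26), Sult2b1 (0.19), Sult5a1 (0.19), Sult1c1 (0.10) and the neuronal Sult4a1 (-0.04), apart from Sult1a1 and Sult1b1. Sult2a2, of the hydroxysteroid-sulfating subfamily, read 5.43 and 5.18 on arrays 1 and 3 and was listed at 0 on array 2, so it is not among the 10.

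Among ester-cleaving enzymes 6 of 8 genes passed toward liver, with a median of 2.47. Without Ces1g, 5 of 7 passed toward liver, with a median of 0.93, where 25.3% of all genes did. Ces3a averaged 4.63 ± 0.13 and Ces1c, a secreted plasma esterase, 4.01 ± 0.82, with array 2 well above the others. The paraoxonase Pon1, a plasma lactonase carried on HDL, averaged 4.38 ± 0.23, but its relatives were far lower, Pon3 at 0.80 ± 0.33 and Pon2 at 0.19 ± 0.02, the last not past the test. Butyrylcholinesterase (Bche) averaged 0.93 ± 0.66 and no longer passed without array 2 (0.72) or array 3 (0.75). The arylacetamide deacetylase Aadac was at -0.09 ± 0.10 and did not pass. The ratio of Adh4 stood far above those of its own family. Adh1, the classical liver enzyme of ethanol oxidation, averaged 0.60 ± 0.30 and Adh7 0.41 ± 0.11, both past the test, although Adh7 did not pass without array 2 (0.40). Adh6a was at 0.08 ± 0.25. Each of these 3 genes had 1 probe. As for Sult1d1, whether a small ratio here, or that of Aadac, reflects like transcript levels or a weak signal cannot be told from ratios. Adh5, the formaldehyde-oxidising class III enzyme, read 2.60 and 2.62 on arrays 2 and 3 and was listed at 0 on array 1, so 4 genes of the family had a full ratio. The lowest Adh4 array, 4.39, exceeded the highest value of any other measured Adh gene, 2.62.

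**Figure D3:**
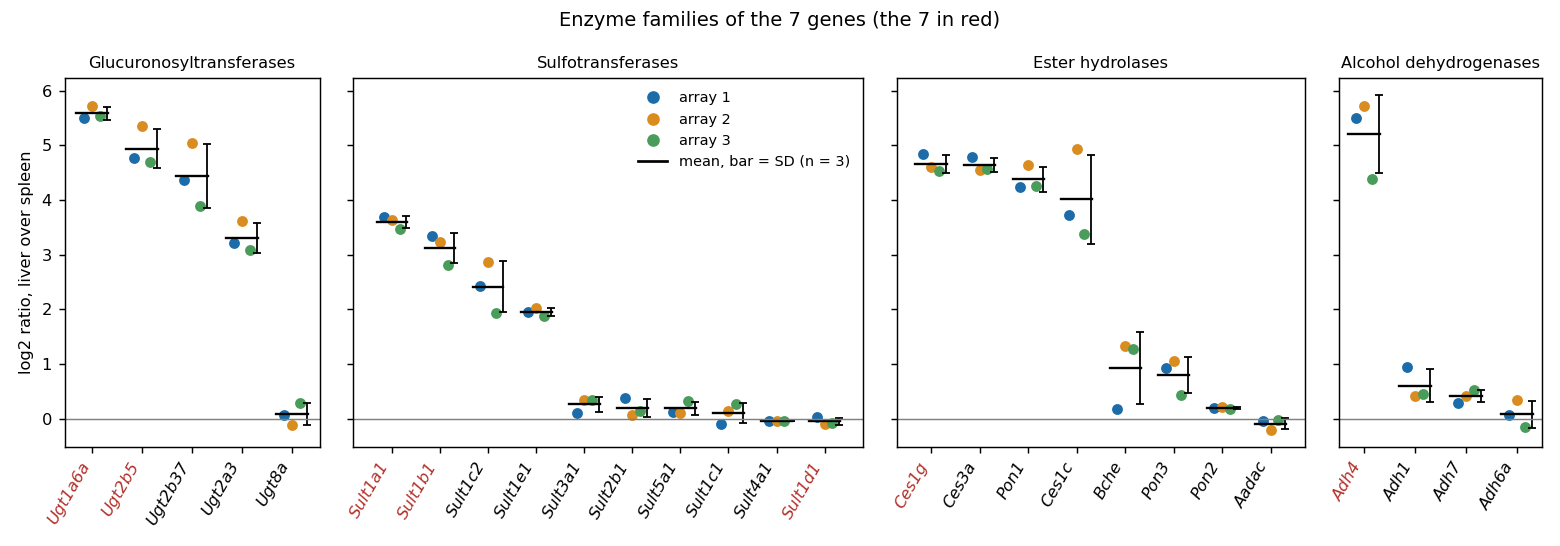
Log2 ratio of liver over spleen in the 4 enzyme families, genes ordered by mean within each. Points are the 3 arrays, lines the mean and bars the SD (n = 3), with the 7 genes in red. Adh4 stands alone above its family, while Sult1d1 lies with the 5 other sulfotransferases near 0.

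Ugt2b5, Sult1b1 and Sult1d1 lie in 1 unbroken run of 13 protein-coding genes of the Ugt2 and Sult1 families in the RefSeq table. Of the 13, 6 had a ratio on all arrays and 5 of these passed toward liver. In chromosomal order these were Ugt2b5 (4.93), Ugt2b37 (4.44), Ugt2a3 (3.31), Sult1b1 (3.12), Sult1d1 (-0.05) and Sult1e1 (1.96). Sult1d1 thus lay directly between 2 genes that passed toward liver. Beside Ugt1a6a the nearest measured genes were Sag (0.03 ± 0.18) and Dnajb3 (0.31 ± 0.13). Sag did not pass, and Dnajb3 passed toward liver (limma adjusted p = 0.0280). Adh4 had Adh6a on 1 side and Eif4e (0.13 ± 0.14) on the other. Directly beside Adh4 on the Eif4e side lies Adh5, which read 2.60 and 2.62 on arrays 2 and 3 and was listed at 0 on array 1. Sult1a1 had Sgf29 (-0.24 ± 0.05), which passed toward spleen (limma adjusted p = 0.0446), and Slx1b (-0.23 ± 0.30), which did not pass. Ces1g had Ces1c on 1 side and Gnao1 (-0.05 ± 0.12) on the other. On the side of Ugt2b5 away from Ugt2b37, the nearest measured gene was Stap1, with 14 genes between. It passed toward spleen, at -1.75 ± 0.05 (limma adjusted p = 3.31e-05). These neighbours were chosen after their values were seen, as the closest gene with a ratio on each side.

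**Figure D4:**
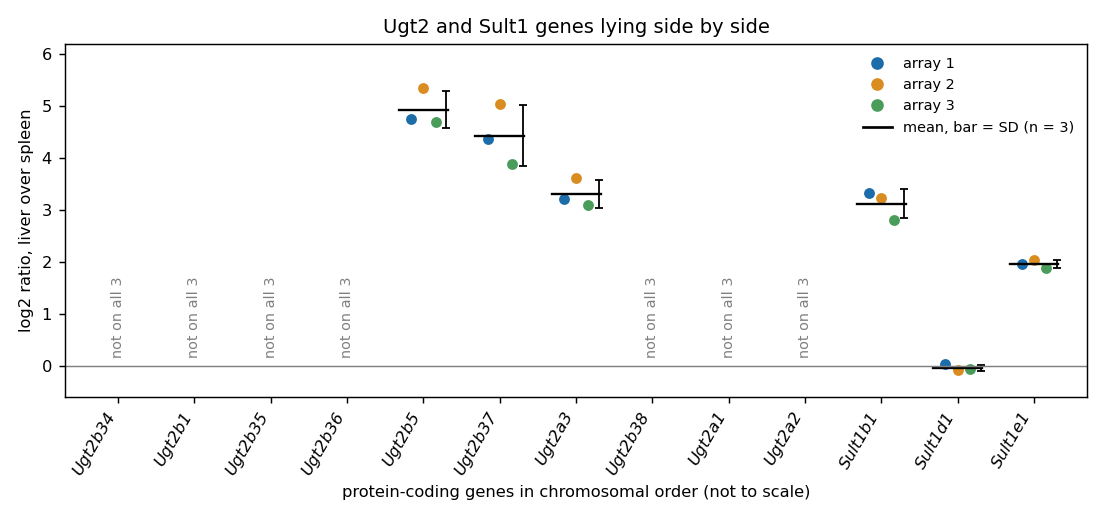
Log2 ratio of liver over spleen for the run of Ugt2 and Sult1 genes in chromosomal order, evenly spaced. Points are the 3 arrays, lines the mean and bars the SD (n = 3), and "not on all 3" marks genes without a ratio on every array. Sult1d1, at -0.05, lies between Sult1b1 at 3.12 and Sult1e1 at 1.96.

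RefSeq sequence before the start of these genes is shown for 4 of the 7, to set the gene of the highest ratio and the liver-high sulfotransferases beside the flat one. They were chosen after the ratios and motif matches were seen. All 7 symbols were matched, in 8 windows since Sult1b1 has 2 starts, of which that of the outermost is shown. Each run is the 250 bases before the annotated start on build GRCm38.p6, 5′ to 3′ on the gene's strand. Capitals mark GTTAAT, a half-site of the liver factor HNF1, on either strand.
Ugt1a6a, chr1:88134559-88134808, plus strand: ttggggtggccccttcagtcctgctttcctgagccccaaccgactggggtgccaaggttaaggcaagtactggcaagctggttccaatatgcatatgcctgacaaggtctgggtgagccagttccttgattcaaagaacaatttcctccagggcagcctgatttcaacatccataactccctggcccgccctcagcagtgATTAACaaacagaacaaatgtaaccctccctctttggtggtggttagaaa
Sult1a1, chr7:126676419-126676668, minus strand: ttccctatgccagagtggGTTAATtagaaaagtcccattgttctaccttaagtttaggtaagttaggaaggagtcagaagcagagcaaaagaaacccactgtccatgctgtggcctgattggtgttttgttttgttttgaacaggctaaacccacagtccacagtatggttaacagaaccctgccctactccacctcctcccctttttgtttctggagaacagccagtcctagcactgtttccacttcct
Sult1b1, chr5:87538196-87538445, minus strand: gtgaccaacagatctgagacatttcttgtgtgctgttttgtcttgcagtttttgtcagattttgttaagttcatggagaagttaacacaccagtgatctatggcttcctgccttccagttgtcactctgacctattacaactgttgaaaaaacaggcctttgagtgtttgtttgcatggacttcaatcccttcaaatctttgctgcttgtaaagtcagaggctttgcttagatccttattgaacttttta
Sult1d1, chr5:87569007-87569256, minus strand: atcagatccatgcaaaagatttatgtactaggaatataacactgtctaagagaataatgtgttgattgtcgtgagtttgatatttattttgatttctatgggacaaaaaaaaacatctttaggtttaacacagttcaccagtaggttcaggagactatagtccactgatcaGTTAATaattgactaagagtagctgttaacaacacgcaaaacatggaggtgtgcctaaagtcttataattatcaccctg

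The half-site was present before 3 of the 7 genes: on the minus strand at bases -50 to -45 of Ugt1a6a, at -232 to -227 of Sult1a1 and at -79 to -74 of Sult1d1, counted back from the start. It is found in 6.43% of all 32851 RefSeq windows of this length. Sult1d1 held it although its ratio was near 0, and neither Sult1b1 window did although its ratio was 3.12. The dioxin-response core GCGTG, found in 28.2% of windows, was in the second Sult1b1 window and before Sult1d1. TATAAA, in 12.4% of windows, was before Ces1g, on the strand opposite to the gene. CAAAGTCCA (HNF4, 0.384% of windows), TGTTTAC (FOXA, 3.17%) and TTGCAA (C/EBP, 5.34%) were in none of the 8. Neither was the HNF1 half-site followed after 1 base by its reverse complement (0.00913% of windows), nor AGGTCA repeated after 1 base (0.0335%), a nuclear receptor motif. All were searched on both strands, and no 2 marked motifs overlapped. Only exact matches were counted, and the Sult1d1 half-site is followed after 1 base by attgac, close to ATTAAC. These are matches of letters, not measured binding.

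Of 7 measured genes that supply or carry the donors, 3 passed toward liver and 1 toward spleen, with a median of 0.19. The share past the test in either direction is near the 52.8% of all genes. Ugdh, which makes UDP-glucuronic acid, read 2.45, 2.66 and 2.15, a mean of 2.42 ± 0.26. The 2 PAPS synthases went opposite ways, Papss2 at 0.81 ± 0.28 toward liver and Papss1 at -0.34 ± 0.08 toward spleen. Slc35b2, which carries PAPS into the Golgi, averaged 0.46 ± 0.25. Papss1 and Slc35b2 did not pass without array 1 (-0.36 and 0.42) or without array 2 (-0.29 and 0.36), and the count past the test was then 2. The phosphatase Bpnt1, which clears the spent PAPS, was at 0.19 ± 0.25, the sulfate carrier Slc13a1 at 0.19 ± 0.15 over 2 probes and Slc35b1 at 0.11 ± 0.13. Another Slc13a1 probe read 2.64 and 0.94 on arrays 1 and 3 and was listed at 0 on array 2. Bpnt1 passed toward liver without array 3, at 0.33.

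Of 5 measured hydrolases that remove glucuronic acid or sulfate, 1 passed toward liver and 1 toward spleen, shares near the 25.3% and 27.4% of all genes. The lysosomal arylsulfatase Arsa passed toward liver at 0.94 ± 0.01 and Arsb passed toward spleen at -0.87 ± 0.13. The beta-glucuronidase Gusb was at -0.27 ± 0.20, Arsk at -0.09 ± 0.11 and Arsg at -0.07 ± 0.20, and none of these 3 passed. Other conjugating enzymes and partners passed toward liver in 7 of 7 cases, with a median of 1.88. They were led by the methyltransferases Nnmt at 3.94 ± 0.87, Tpmt at 3.70 ± 0.39 and Inmt at 3.70 ± 0.44. The acetyltransferases were lower, Nat2 at 0.55 ± 0.22 and Nat1 at 0.34 ± 0.13, and Nat1 did not pass without array 1 (0.27) or array 2 (0.38).

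All 4 measured exporters of conjugates passed toward liver, where 25.3% of all genes did, with a median of 1.36. Abcc2, which moves conjugates into bile, read 3.57, 3.97 and 2.97, a mean of 3.50 ± 0.50, and Abcc3, which returns them to blood, averaged 2.00 ± 0.24. Abcc6 averaged 0.72 ± 0.46 and did not pass without array 1 (0.74) or array 2 (0.49). Among 13 measured regulators 9 passed toward liver and 1 toward spleen, with a median of 1.25. Over all genes 25.3% passed toward liver and 27.4% toward spleen. Hnf4a, at 0.04 ± 0.93, read 0.99, -0.02 and -0.86 and did not pass. Rxra, at -0.28 ± 0.21, did not pass either. Another Hnf4a probe read 0.09 and 0.36 on arrays 2 and 3, and another Rxra probe read 0.27 on array 2 alone. Ppara read 3.00, 4.34 and 2.11, a wide spread, and Nr1h4 and Foxa3 averaged 2.92 ± 0.20 and 2.45 ± 0.19. The drug-sensing receptors Nr1i2 (PXR) and Nr1i3 (CAR), named after their values were seen, averaged 2.39 ± 0.23 and 1.99 ± 0.17. Nfe2l2 (NRF2), an inducer of conjugating enzymes under oxidative stress, passed toward spleen at -0.40 ± 0.02, and its inhibitor Keap1 was at 0.02 ± 0.11. Arnt, the partner of the dioxin receptor, passed at 0.42 ± 0.19 but not without array 2 (0.31).

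**Figure D5:**
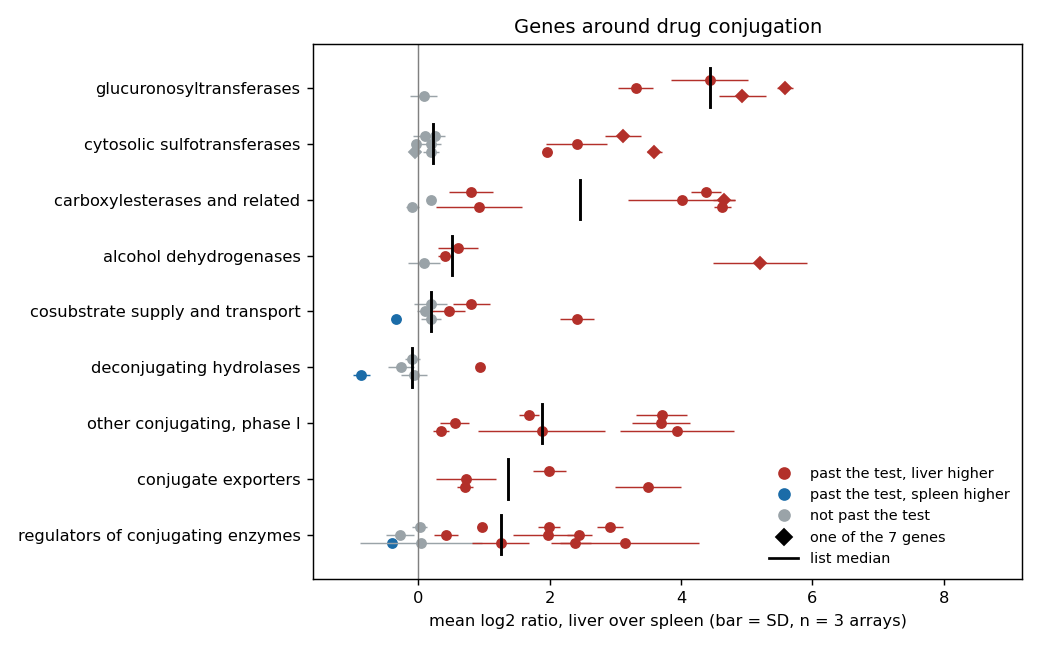
Mean log2 ratio of every measured gene in 9 lists around drug conjugation, with SD bars (n = 3 arrays), diamonds for the 7 genes and black lines for list medians. Red and blue mark genes past limma's test toward liver and spleen. List medians, with the 7 genes included, run from -0.09 for the deconjugating hydrolases to 4.44 for the glucuronosyltransferases.

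The genes most like each of the 7 were found by the Euclidean distance between their 3 array ratios, over 9803 genes. Nearest to Ces1g was another carboxylesterase, Ces3a, at a distance of 0.08, followed by the bile acid conjugating enzyme Baat at 0.23. Nearest to Adh4 were the gluconeogenic enzyme Pck1 at 0.25 and Apcs at 0.52, and Pck1 also had its lowest ratio on array 3 (5.38, 5.67 and 4.60). Ugt1a6a lay nearest to Sipa1l3 at 0.33 and Iyd at 0.52, and Ugt2b5 nearest to Cyp3a25 at 0.30 and Slc27a2 at 0.37. Sult1a1 was closest to Aqp8 and Osbpl1a, both at 0.10, and Sult1b1 to Klf15 at 0.12 and Gcat at 0.16. Sult1d1 was closest to Pparg at 0.01 and Cysltr1 at 0.02, with 3662 genes within 0.5. Within the same distance, Ugt1a6a and Adh4 had 1 gene each. The distance covers 3 arrays of 1 tissue pair and is a description.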

How the data were processed

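The deposited table gives 1 log2 ratio of the 2 channels per probe and array, 16281 probes in all. How the authors corrected background and normalized the dyes, and which log base and direction they used, is not given in the sources used here. The base was taken from the values: the highest over the 3 arrays is 6.64, the log2 of 100. The median of every log2 column, as deposited, is 0. No channel intensity was used, so depth has no meaning and the number of arrays limits the precision. Exact zeros (1098 to 1414 per array) were left out, and 14122 probes had a value on all 3 arrays. Symbols came from the platform annotation, checked by Entrez number in a RefSeq table: 13738 probes had 1 symbol (13694 matched, 0 changed), 52 several and 2491 none. Probes of a gene were averaged. The 9803 genes were fitted in limma 3.58.1 under R 4.3.3 (ratio against 0, intercept only, moderated variances, two-sided, Benjamini-Hochberg over all genes, threshold 0.05), tested on simulated data. The 7 genes and the lists were chosen with earlier results of these data known. Named genes are the 7, all measured genes of their families, and from each other list the 3 largest past the test and the largest opposite one, plus the 2 genes nearest to each of the 7. Other list members are given as values or as chosen after their values were seen. The alternatives tried changed the handling of zeros and incomplete probes, centring, scaling, probe summary, variance model, fold limit and the arrays used.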

Additional observations from a re-analysis of the deposited data

How the results depend on the processing

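The 6 liver-high genes kept their direction and passed limma's test under each alternative tried, as did the same count by single probes, apart from a first form of the scaling. Sult1d1 passed under none (adjusted p from 0.490 to 0.881 over 9 of them). Leaving out single arrays moved Adh4 most, from 4.95 to 5.61. Zeros kept as values, incomplete probes used, arrays centred or scaled, other probe summaries and another variance model (limma's trend and robust) left the count of all genes and those of the 7 genes and the 9 enzyme and regulator lists within 1.5 times. Of the genes named above, Bche, Abcc6, Cd79a (adjusted p = 0.0651) and Adgre1 (adjusted p = 0.0743) did not pass limma's test with zeros kept. Sult3a1 passed it toward liver with the variance trend (adjusted p = 0.0374). Pon2 passed with zeros kept or with the variance trend, and Slc13a1 passed with incomplete probes or its largest probe. Incomplete probes also brought in Sult2a2 (5.31, adjusted p = 3.14e-05) and Adh5 (2.61), both past the test toward liver. Epcam passed toward spleen in 3 of these alternatives, which moved its marker count from 0 to 1. Asking for 2-fold as well lowered the genes past the test from 5174 to 1726, the alcohol dehydrogenases from 3 to 1, the exporters from 4 to 2, the donor-supply genes from 4 to 1 and the deconjugating hydrolases from 2 to 0, since their ratios are small. Without single arrays the donor-supply count ran from 2 to 5. The scaling was first run with limma's form for single-channel values, which divides by column medians, here near 0; limma's test then passed 0 genes (287 at an unadjusted p under 0.05) and 0 of the 7. It was replaced, after that output was seen, by limma's form for log ratios, by median absolute values, with 5177 genes and 6 of the 7. None of the 7 genes changed direction in the other alternatives. The sign of other genes was not followed, and that of Hnf4a differed between arrays (0.99, -0.02 and -0.86). Signal over background could not be judged from ratios.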
